A study of Mus musculus with 4 samples.

Results

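NUMB and its relative NUMBL, the tyrosine kinases SRC and FYN, the kinase BRAF, the receptors ERBB4, FGFR1, FGFR2 and TRKB (gene *Ntrk2*) and neugrin (gene *Ngrn*) were examined here exon by exon in *Ptbp2* mutant and control mouse brain. The members are the exons of these 10 genes that stand in the middle of a trio, the unit of the splicing database, which joins an exon to the exon before it and the exon after it. They were found by matching the chromosome, the strand, the exon length and both intron lengths of each trio to the GENCODE annotation. This gave 194 of 218362 trios and 148 of 180955 middle exons. Of the 148 exons, 17 were cassette exons, which the splicing database lists as alternative, and 131 were listed as constitutive. *Fgfr2* had 5 cassette exons, *Fyn* had 3, *Braf*, *Numb* and *Fgfr1* had 2 each, and *Numbl*, *Src* and *Erbb4* had 1 each. *Ntrk2* and *Ngrn* had constitutive exons only, with 16 and 1.

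PTBP2 is a pyrimidine-tract binding protein that represses or activates alternative exons in developing neurons. NUMB is an adaptor protein that antagonizes Notch signaling and binds the endocytic machinery, and its alternative exons lie in the phosphotyrosine-binding domain and in the proline-rich region. Neurons make a form of SRC with extra residues in the SH3 domain, encoded by the N1 exon, and a form of FYN with its own linker between the SH2 and kinase domains. ERBB4, FGFR1, FGFR2 and TRKB are receptors for neuregulins, fibroblast growth factors and BDNF, and RAS and BRAF carry their signal to the MAP kinase pathway.

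RNA was sequenced from whole brain at embryonic day 18 (E18) and from cortex at postnatal day 1 (P1), all from mice of a Mixed C56Bl/6:129S2 background. The NesKO animals carried loxP sites around exon 4 of *Ptbp2* and Cre from the nestin promoter, which acts in neural progenitors and their descendants, and the EmxKO animals carried the same floxed exon with Cre from *Emx1*, which acts in the dorsal forebrain, so that interneurons, microglia and vessels of the cortex keep the gene. The controls were littermates labelled WT. The E18 libraries were made from 2 brains of each genotype and were not strand specific, and the P1 libraries were made from 1 animal each and were strand specific. Each of the 4 groups has 1 library, so no difference has a replicate check, every test below compares libraries and not genotypes, and stage, tissue, Cre line and strand protocol cannot be told apart.

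The targeted exon was read first. In the NesKO, 257 reads skipped *Ptbp2* exon 4 and 0 joined it, so 100% was skipped (95% Wilson interval, 98.5 to 100%). By the limit of 3 reads used here for a count of 0, inclusion of up to 1.17% could be missed. The E18 WT skipped it in 0.225% of the reads (0.0398 to 1.26%). In the EmxKO 82.6% (79.9 to 85.1%) was skipped. The P1 library labelled WT also skipped exon 4, in 31.5% of its reads (29.5 to 33.7%), which goes against a plain wild-type label. That library is called the labelled WT below, each P1 difference rests on it, and the E18 values are those that stand without it. The libraries held 48239933, 50074568, 82960442 and 83241630 reads on distinct junctions, in the order NesKO, E18 WT, EmxKO and labelled WT, which is the order used throughout. Junction reads from markers of non-cortical brain summed to 53.1 RPM (reads scaled to the library total of distinct junction reads) in the E18 WT and 1.51 RPM in the labelled WT, with 5 of 7 genes measured, and those of cortical neurons to 163.8 and 463.9 RPM, with 4 of 5 measured. Microglial markers, 5 of 5 measured and none at 0, summed to 90.5 and 65.8 RPM at E18 and to 51.0 and 34.0 at P1. The sums were higher in both mutants, as were 4 of the 5 genes at each stage. Neuron markers, 6 of 6 measured, summed to 0.847 and 0.941 times the controls. Of these 6 genes 5 were lower and 1 was higher at each stage, with *Snap25* at 0.468 and 0.506 times and *Tubb3* at 0.971 and 1.26 times. Their part in the results below was not tested.

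The sequences show the exons on which the results turn, read from GENCODE release M21 transcripts, 5′ to 3′ in mRNA sense, with the exon in capitals and 15 bases of each neighboring exon in lower case. The N1 exon of *Src* is on chromosome 2 (mm9 chr2:157284579-157284596, plus strand), and the *Numb* exons are on chromosome 12 (chr12:85166209-85166241 and chr12:85138147-85138293, minus strand). The *Braf* exons are on chromosome 6 (chr6:39596724-39596843 and chr6:39598820-39598855, minus strand), and the *Erbb4* exon is on chromosome 1 (chr1:68090482-68090529, minus strand). All coordinates given are those of mm9. All 6 are annotated as coding and have lengths divisible by 3, so each adds residues without moving the reading frame.
Src N1, 18 nt: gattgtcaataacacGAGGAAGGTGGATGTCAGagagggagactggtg
Numb 33 nt: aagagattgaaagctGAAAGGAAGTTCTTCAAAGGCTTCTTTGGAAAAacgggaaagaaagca
Numb 147 nt: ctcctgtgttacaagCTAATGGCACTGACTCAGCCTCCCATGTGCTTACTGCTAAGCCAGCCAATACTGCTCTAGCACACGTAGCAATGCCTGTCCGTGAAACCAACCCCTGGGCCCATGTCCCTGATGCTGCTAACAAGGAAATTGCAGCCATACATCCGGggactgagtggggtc
Braf 120 nt: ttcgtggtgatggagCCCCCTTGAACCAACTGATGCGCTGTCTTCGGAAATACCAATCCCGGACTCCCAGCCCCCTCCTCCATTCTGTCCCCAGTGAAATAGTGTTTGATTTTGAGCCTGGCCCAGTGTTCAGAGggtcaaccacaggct
Braf 36 nt: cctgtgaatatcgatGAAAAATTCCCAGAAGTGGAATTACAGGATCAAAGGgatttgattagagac
Erbb4 48 nt: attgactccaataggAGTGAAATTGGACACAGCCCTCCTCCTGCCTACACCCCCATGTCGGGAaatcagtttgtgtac

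Inclusion is given as PSI, the percent spliced in that SpliceTrap estimated from reads on the exons and their junctions. An exon was called at a difference of 10 PSI points where each of the libraries compared held 20 or more junction reads. As a second measure the junction PSI was computed from the mean reads of the upstream and downstream inclusion junctions and the reads of the skipping junction, with Wilson intervals, and a two-sided Fisher's exact test was run on those reads, adjusted (Benjamini-Hochberg) over all exons of the class. Intervals cover counting error only. At E18, 3 of 16 cassette exons tested were called, in *Braf*, *Numb* and *Erbb4*, and all 3 were higher in the NesKO. Over all cassette exons 10.9% were called, 6.98% higher and 3.94% lower. At P1, 3 of 17 were called, in *Braf* and *Numb* with higher and in *Fgfr2* with lower PSI in the EmxKO, against 9.42% of all cassette exons, 6.83% higher and 2.59% lower. By the read test 1 exon passed at E18 (all cassette exons, 4.43%), and 3 passed at P1 (8.47%). The median PSI difference over the members was 0 at both stages, and that over all cassette exons was 0 at E18 and 0.2 points at P1.

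None of the 129 constitutive exons tested at each stage was called, where 1.31% of all constitutive exons were called at E18 and 0.697% at P1. By Fisher's exact test the adjusted p was under 0.05 for 0 of them at each stage, against 0.0478% and 0.12% of all, and the unadjusted p for 2 at E18 and 1 at P1. A PSI of at least 95 was listed in all 4 libraries for 125 of the 131, and 73 had no skipping read in any library. Among the cassette exons 12 of 17 (70.6%) had a length divisible by 3, against 49.6% of all cassette exons in the series, and 14 of the 17 were annotated as coding.

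**Figure D1:**
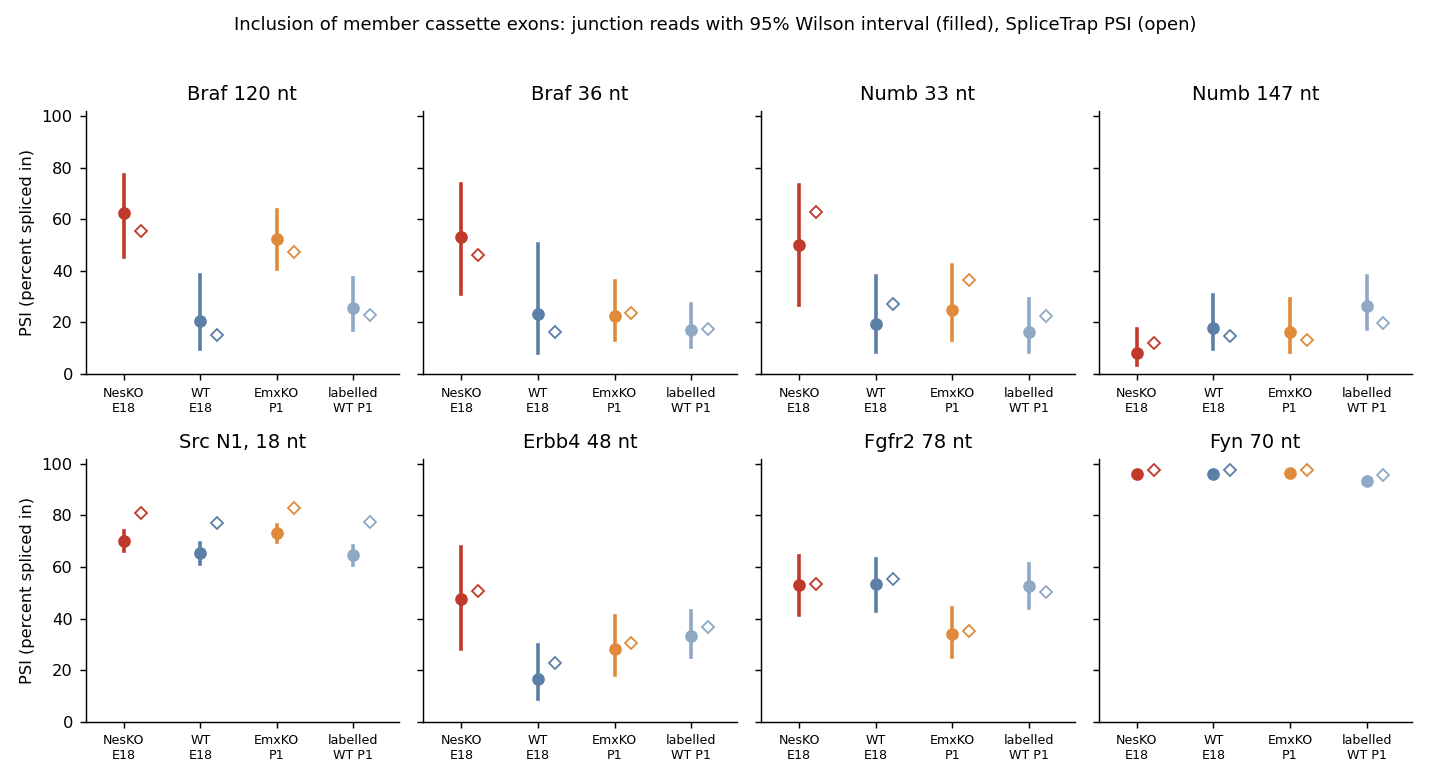
PSI (percent) of 8 member cassette exons in the 4 libraries, with 1 library per group. Filled points are the PSI from junction reads with its 95% Wilson interval, and open diamonds are the SpliceTrap PSI. For the *Braf* exon of 120 nt both mutants lie above their controls, at 62.5 and 52.2 against 20.7 and 25.7, and for the *Erbb4* exon of 48 nt the NesKO is highest and the E18 WT lowest.

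Among the adaptors, the *Numb* exon of 33 nt, which lies in the phosphotyrosine-binding domain, had a PSI of 63.0, 27.0, 36.3 and 22.4 in the NesKO, the E18 WT, the EmxKO and the labelled WT. It was higher in both mutants, by 36 and 13.9 points, past the cutoff. These values rest on few reads, since the whole trio held 20, 30, 40 and 56 junction reads. The skipping reads numbered 7, 21, 24 and 41, the downstream inclusion reads 12, 8, 16 and 13, and the upstream ones 1, 1, 0 and 2. In trios of the 75 nt exon upstream of it, the same upstream junction held 6, 7, 6 and 10 reads and the skipping junction 12, 28, 44 and 60. In those of the 75 nt exon downstream, the same downstream junction held 3, 0, 2 and 1 and the skipping junction 6, 21, 24 and 41. The counts of inclusion and skipping thus differed with the trio. By the upstream trios the mutant was the higher library at E18 and the lower at P1, and by the downstream trios it was the higher at each stage. The junction PSI differed by 30.8 points at E18 (95% Newcombe interval, 1.00 to 56.3) and by 8.67 points at P1 (-8.63 to 27.5). Fisher's exact test gave an adjusted p of 0.517 at E18 and 0.932 at P1, so neither difference passed it. With the lower of the inclusion junctions of the trio used, the P1 difference was -4.65 points, a value that rests on those trio-dependent counts.

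The *Numb* exon of 147 nt, in the proline-rich region, was mostly skipped in all libraries. Its PSI was 12.1 in the NesKO, 14.9 in the E18 WT, 13 in the EmxKO and 19.6 in the labelled WT. Both mutants were below their control, with differences of -2.8 and -6.6 points that did not reach the cutoff. From junction reads the differences were -9.94 points (-23.5 to 2.61) and -10.1 points (-24.1 to 5.44), with adjusted p of 0.765 and 0.772 by Fisher's exact test. In the trios used, then, the mutants were the higher library at each stage for the exon of 33 nt and the lower for the exon of 147 nt. For the exon of 33 nt the direction at P1 differed with the trio.

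Elsewhere in *Numb* and *Numbl* the libraries sorted by stage more than by genotype. The *Numb* exon of 85 nt in the 5′ UTR, listed as constitutive, had a PSI of 73.0, 72.1, 56.4 and 59.0. The *Numbl* exon of 100 nt (chr7:28046027-28046126), found in a noncoding transcript of the gene, had 27.8, 29.1, 5.30 and 4.70, so that both P1 libraries lay below both E18 libraries. Its differences between the genotypes were -1.3 and 0.6 points. An alternative 3′ splice site of *Numb* that adds 134 nt was listed at 64.3, 81.9, 99.9 and 99.9, but the trio of this event held no read on the other site in any library. The trios of the next exon upstream, of 294 nt, did hold such reads, with 4, 3, 13 and 8 into the shorter form and 63, 56, 73 and 69 into the longer one.

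The N1 exon of *Src* was the most deeply read of the member cassette exons under 50 nt. Its PSI was 81.0 in the NesKO, 77.2 in the E18 WT, 82.7 in the EmxKO and 77.3 in the labelled WT, so the mutants were the upper pair. Reads joining the upstream exon to N1 numbered 600, 517, 904 and 709, reads leaving N1 numbered 105, 109, 75 and 72, and skipping reads numbered 150, 166, 180 and 214. Inclusion of N1 rose in the EmxKO by 8.51 points of junction PSI (3.42 to 13.6), with an adjusted p of 0.0164 by Fisher's exact test, though its PSI difference of 5.40 points was under the cutoff. At E18 the junction PSI was 4.83 points higher in the NesKO (-1.01 to 10.6), with an adjusted p of 0.677. The difference between the stages had an adjusted p of 0.980 (Wald chi-square test).

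The level of N1 depended on which reads were used, though the mutant was the higher in each case. In trios with the exon before N1 in the middle, the share of its outgoing reads that entered N1 was 35.7%, 28.8%, 44.8% and 36.4%. In trios with the exon after N1 in the middle, the share of incoming reads from N1 was 43.2%, 42.1%, 35.1% and 30.3%. The mutant exceeded its control by 6.96 (-1.41 to 15.2) and 1.09 points (-6.08 to 8.25) at E18 and by 8.38 (1.46 to 15.2) and 4.75 points (-1.93 to 11.4) at P1. In cassette exons under 50 nt the junction on the left in the genome held a median of 81.8% of the inclusion reads over 822 exons, against 50.8% in the 3400 exons of 100 nt or more, so the inclusion junctions of short exons were not counted alike. The N2 exon of *Src* was not found among the trios.

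The coding *Src* exon of 100 nt just upstream of N1 (chr2:157284270-157284369) was included less at E18 than at P1 in its trio with the exon after N1. Its PSI was 88.4, 80.6, 99 and 98, and the skipping reads were 23, 34, 4 and 6. These reads join the exon of 255 nt before it to the exon after N1, so they skip N1 as well. The trio of the same exon joined to N1 held 0 skipping reads in each library, with PSI of 99.9, 75.7, 99.9 and 99.9. In the trio with the exon after N1 the E18 pair lay below the P1 pair. Between the mutant and its control the junction PSI differed by 5.72 points at E18 (0.461 to 11.2, p = 0.0354 and adjusted p = 1 by Fisher's exact test) and by 0.441 points at P1.

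*Fyn* has a pair of mutually exclusive exons, of which the 165 nt exon (7A, chr10:39249243-39249407) is the form of the brain and the 156 nt exon (7B, chr10:39249725-39249880) that of lymphocytes. The mean reads were 1091, 1081, 2772 and 2888 for 7A and 74, 101, 198 and 202 for 7B. Exon 7B therefore held 6.35% (5.09 to 7.90%), 8.54% (7.08 to 10.3%), 6.67% (5.82 to 7.62%) and 6.54% (5.72 to 7.46%) of the pair. By these mean reads the E18 WT was the highest of the 4, and the NesKO minus the WT was -2.19 points (-4.34 to -0.0626). Fisher's exact test gave p = 0.0493 and an adjusted p of 0.238 over 116 like pairs in the whole table. At P1 the difference was 0.129 points (-1.12 to 1.39). In trios of the 150 nt exon before the pair, reads into 7B were 133, 179, 536 and 677. Those into 7A were 1217, 1192, 2901 and 3126. The trio of 7B itself held 58, 86, 216 and 241 reads on that same 7B junction. The share of 7B and the order of the libraries therefore differed with the trio, and by the 150 nt trios the labelled WT was the highest. SpliceTrap listed a PSI between 14.5 and 18.9 for 7B and between 99.8 and 99.9 for 7A, so for 7B the listed PSI is not the share of the pair.

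The *Fyn* exon of 70 nt in the 5′ UTR (chr10:39174872-39174941) had PSI of 97.6, 97.6, 97.5 and 95.7. The labelled WT was the lowest, with 126 skipping reads against 66 in the EmxKO. Its inclusion rose in the EmxKO by 2.88 points of junction PSI (1.46 to 4.32), with an adjusted p of 0.00179 by Fisher's exact test. At E18 the difference was -0.107 points (-2.13 to 1.73).

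Both alternative exons of *Braf* lie in the part of the kinase between the RAS-binding and catalytic domains. The exon of 120 nt was the member with the largest difference called at E18 by cutoff and test. Its PSI was 55.4 in the NesKO, 15.1 in the E18 WT, 47.4 in the EmxKO and 23 in the labelled WT, so both mutants were above both controls. The upstream inclusion reads were 16, 5, 15 and 8, the downstream ones 24, 6, 57 and 27, and the skipping reads 12, 23, 33 and 52. Inclusion rose by 41.8 points of junction PSI at E18 (17.1 to 59.97), with an adjusted p of 0.0402 by Fisher's exact test. At P1 it rose by 26.5 points (10.3 to 40.8), with an adjusted p of 0.0243. The unadjusted p of these tests was 0.00166 at E18 and 0.00172 at P1. With the lower of the inclusion junctions it was 0.00516 and 0.0329, and with the higher 0.000375 and 0.000204, by Fisher's exact test. No adjusted p is given for these settings, so passing the adjusted test was not shown for the lower junction. The difference between the stages did not pass the test (adjusted p = 0.980, Wald chi-square test).

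The *Braf* exon of 36 nt had a PSI of 46.0, 16.2, 23.5 and 17.4, highest in the NesKO. Its trio held 26 and 15 junction reads at E18, and with 15 reads the E18 WT missed the minimum of 20, so this exon was not tested there. Its junction PSI at E18 was 52.9% in the NesKO (31.0 to 73.8%) and in the WT 23.1% (8.18 to 50.3%), a difference of 29.9 points (-5.09 to 55.5). At P1 the difference was 5.34 points (-8.39 to 20.4), with an adjusted p of 0.991 by Fisher's exact test. The retained intron of *Braf* of 99 nt had PSI of 73.9, 77.2, 69.7 and 74.3, with differences of -3.3 and -4.6 points.

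**Figure D2:**
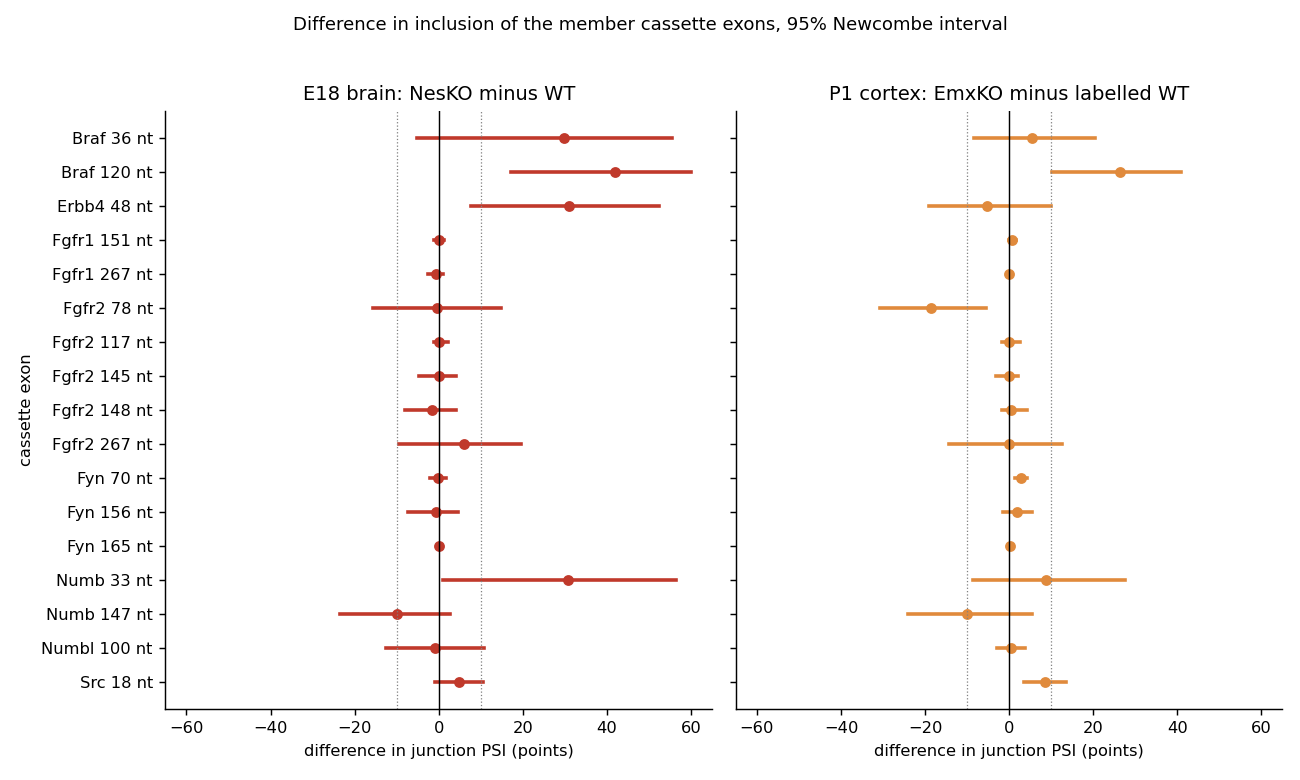
Difference in junction PSI (points, mutant minus control) of the 17 member cassette exons at E18 (left) and P1 (right). Bars are 95% Newcombe intervals, dotted lines mark the cutoff of 10 points, and the *Braf* exon of 36 nt at E18 is drawn although it missed the minimum of reads. The interval of the *Braf* exon of 120 nt lies above 0 at both stages, and that of the *Fgfr2* exon of 78 nt lies below 0 at P1.

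Among the receptors, the *Erbb4* exon of 48 nt, which gives the CYT-1 form its binding sites for PI3 kinase and WW domains, was highest in the NesKO and lowest in the E18 WT. Its PSI was 50.7 in the NesKO, 22.6 in the E18 WT, 30.5 in the EmxKO and 36.9 in the labelled WT. The upstream inclusion reads numbered 8, 8, 4 and 20, the downstream ones 11, 8, 27 and 48, and the skipping reads 11, 40, 41 and 68. The NesKO was 31.0 points of junction PSI above its control (7.75 to 52.5), with p = 0.0151 and an adjusted p of 0.205 by Fisher's exact test. The EmxKO minus the labelled WT was -5.26 points (-19.1 to 10.01), with an adjusted p of 1. The difference between the stages had p = 0.0112 and an adjusted p of 0.284 by the Wald chi-square test, which did not pass.

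The juxtamembrane exon of *Erbb4* of 75 nt (chr1:68336817-68336891), which carries the cleavage site of the JM-a form, was set beside the junction before it in the transcript, since the alternative JM-b exon was not found among the trios. Reads from the preceding exon, of 155 nt, into the 75 nt exon were 15, 18, 7 and 13, and reads into the 155 nt exon from the exon before that were 46, 54, 50 and 106. The ratio was 32.6% and 33.3% at E18 and 14.0% and 12.3% at P1. In the trio of the 155 nt exon the same junction into the 75 nt exon held 15, 20, 7 and 21 reads, so its count, and with it the ratio, differed with the trio. These junctions lie in different trios, no interval is given for the ratio, and no test was made.

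In *Fgfr2*, the coding exon of 78 nt (chr7:137384714-137384791) was lower in the EmxKO in the trio with most reads, which joins it to the exon of 318 nt. It had a PSI of 53.3, 55.4, 35.2 and 50.3, so that 3 libraries were close together and the EmxKO stood below them. Its skipping reads were 33, 42, 62 and 61, the upstream inclusion reads 4, 11, 14 and 26, and the downstream ones 69, 84, 50 and 109. The downstream junction is also that of transcripts in which the exon of 267 nt precedes it. In the trio with that exon the PSI was 99.6, 98.8, 99.9 and 97.6, with 1, 2, 0 and 3 skipping reads. The junction PSI of the EmxKO minus that of the labelled WT was -18.7 points (-30.8 to -5.47), with p = 0.00647 and an adjusted p of 0.0695 by Fisher's exact test. At E18 the difference was -0.476 points (-15.7 to 14.7), and the test of the difference between the stages gave an adjusted p of 0.695. The neighboring exon of 267 nt, with PSI of 64.0, 68.9, 53.3 and 59.2, was lower in both mutants, at -4.9 and -5.9 points, but its junction PSI differed by 6.05 (-9.44 to 19.5) and 0.0616 points (-14.2 to 12.5).

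The IIIb and IIIc exons of *Fgfr1* and *Fgfr2* encode alternative ends of the third immunoglobulin domain and set which growth factors are bound. IIIc, the mesenchymal and neural form, held 99%, 99.1%, 98.7% and 99.4% of the pair in *Fgfr1* and 96.4%, 97.8%, 97.5% and 98.4% in *Fgfr2*. The mean reads for IIIb were 5, 5, 12 and 6 in *Fgfr1* and 3, 2, 3 and 3 in *Fgfr2*. In the trios used each pair was thus read almost wholly as IIIc, and all 4 intervals of a difference held 0. In trios of the 191 nt *Fgfr1* exon before the pair, reads into IIIb were 36, 30, 72 and 80. Those into IIIc were 696, 659, 900 and 952. The IIIb share of *Fgfr1* therefore differed with the trio and was larger there, with IIIc still the main form. The *Fgfr1* differences were -0.0830 (-1.49 to 1.25) and -0.717 points (-1.77 to 0.220). Those of *Fgfr2* were -1.44 (-8.11 to 4.47) and -0.963 points (-5.74 to 2.44). Of the 3 mutually exclusive pairs in the members, 0 had an adjusted p under 0.05 by Fisher's exact test at either stage, and 1 an unadjusted p under 0.05, that of *Fyn* at E18. Over all such pairs 6.03% passed at E18 and 4.31% at P1. Between the stages 0 of the 3 passed the Wald chi-square test, also unadjusted, where 1.85% of all such pairs passed adjusted.

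Splice sites a few bases apart were read in both receptors. An alternative 5′ site of *Fgfr1* that adds 6 nt (chr8:26668287-26668292) had PSI of 68.2, 65.9, 61.9 and 52.8. Both mutants were higher, by 2.30 and 9.10 points, short of the cutoff. The reads at P1 differed by 8.49 points (2.32 to 14.6), with an adjusted p of 0.295 by Fisher's exact test. The site of 6 nt in the juxtamembrane region of *Fgfr1* (chr8:26677380-26677385) had 88.7, 85.3, 82.0 and 80.7. The site of 6 nt in *Fgfr2* (chr7:137339686-137339691) had 83.5, 87.0, 72.7 and 85.0, and at P1 differed by -12.3 points, with an adjusted p of 0.700 for its reads.

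*Ntrk2* encodes TRKB, and its transcripts end either in the exon of the truncated receptor T1, which lacks the kinase, or continue into exons of the full-length receptor. The sequences give the last 15 bases of the shared exon in lower case, then in capitals the first 38 bases of each alternative exon. For T1 these run to the end of its stop codon (chr13:59033384-59033421), and for the full-length form they open an exon of 189 nt (chr13:59087163-59087351).
Ntrk2 T1: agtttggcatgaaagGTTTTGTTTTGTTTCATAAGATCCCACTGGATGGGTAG
Ntrk2 full length: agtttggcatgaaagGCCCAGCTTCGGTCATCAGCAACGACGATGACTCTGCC

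Reads from the shared exon into the T1 exon numbered 874, 1149, 572 and 750, and reads into the full-length exon numbered 805, 1444, 1302 and 1140. The share of T1 was 52.1% (49.7 to 54.4%) in the NesKO, 44.3% (42.4 to 46.2%) in the E18 WT, 30.5% (28.5 to 32.6%) in the EmxKO and 39.7% (37.5 to 41.9%) in the labelled WT. The NesKO was the highest library and the EmxKO the lowest, and no intervals overlapped. T1 rose at E18 by 7.74 points (4.68 to 10.8, adjusted p = 9.71e-05) and fell at P1 by 9.16 points (adjusted p = 4.64e-07), each by Fisher's exact test. The adjustment was over all pairs of alternative downstream exons in the table, of which 1.80% passed at E18 and 3.47% at P1. The difference between the stages, 1.03 ± 0.134 (SE) on the log2 scale of the odds ratio for T1, had an adjusted p of 1.70e-11 by the Wald chi-square test, which 0.863% of such pairs passed. This pair was added after the values had been seen.

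T1 is abundant in astrocytes, whose markers did not differ all in one direction. *Gfap* was 2.78 times the control in the NesKO and 2.35 times in the EmxKO, while *Aldh1l1* was 0.805 and 1.04 times and *Aqp4* 0.608 and 0.565 times. The astrocyte and oligodendrocyte markers, 5 of 5 measured and none at 0, summed to 264.3, 288.8, 215.5 and 182.8 RPM. The part of these cells in the T1 share was not tested. The 16 exons of *Ntrk2* tested for inclusion had PSI of 97.1 or more in all 4 libraries.

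*Ngrn* encodes neugrin, and its only exon in the trios, of 111 nt, was included throughout. The intron of 397 nt next to it (chr7:87406310-87406706) was retained in part of the reads, with a retention of 43.6, 58.6, 56.1 and 35.1 by SpliceTrap. Reads across the spliced junction numbered 52, 70, 222 and 301, and the boundary reads 55, 63, 171 and 85 on the upstream and 77, 83, 224 and 153 on the downstream side. The labelled WT thus had the most spliced and the EmxKO about as many boundary as spliced reads. From these reads retention was 55.9% (46.9 to 64.6%), 51.0% (42.9 to 59.1%), 47.1% (42.4 to 51.9%) and 28.3% (24.2 to 32.8%). Retention rose in the EmxKO by 18.8 points (12.3 to 25.1), with an adjusted p of 1.02e-05 by Fisher's exact test over all splice-site and intron events. At E18 the listed ratio differed by -15 points and the reads by 4.88 points (-7.20 to 16.7, adjusted p = 1 by Fisher's exact test), so the measures differed in sign.

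Of the 11 splice-site and intron events of the 10 genes, 10 were tested at E18 and 2 were called, in *Numb* and *Ngrn*, against 8.72% of all such events. At P1 11 were tested and 2 were called, in *Ngrn* and *Fgfr2*, against 5.84%. By the read test, which was added after the values had been seen, 0 passed at E18, where the unadjusted p was also under 0.05 for none, and 1 at P1. Over all events 1.34% and 1.19% passed. The test of the difference between the stages, which 0.731% of all events passed, gave an adjusted p of 0.789 or more for each of the 10 events.

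**Figure D3:**
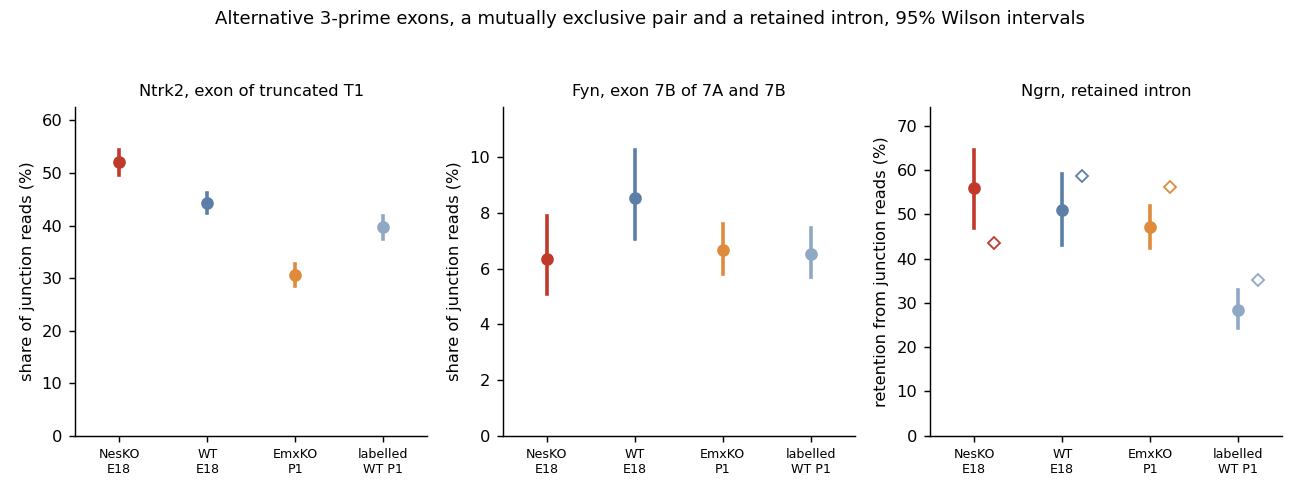
Share of the T1 exon among *Ntrk2* reads, share of exon 7B in the *Fyn* pair, and retention of the *Ngrn* intron (percent) in the 4 libraries. Points are shares of junction reads with 95% Wilson intervals, and open diamonds in the right panel are the SpliceTrap ratio. T1 is highest in the NesKO at 52.1% and lowest in the EmxKO at 30.5%, the *Fyn* intervals overlap between neighbors, and the labelled WT has the lowest *Ngrn* retention at 28.3%.

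No member exon passed the adjusted test of the difference between the stages, with 0 of 16 cassette exons against 1.45% of all cassette exons and 0 of 129 constitutive exons against 0.00795%, by the Wald chi-square test. Unadjusted, 2 cassette exons (*Erbb4* 48 nt and *Fyn* 70 nt) and 1 constitutive exon (*Src* 77 nt in the 5′ UTR) had p under 0.05. Between the controls, which also enter the comparisons with the mutants, 2 of 16 cassette exons were called, where 20.9% of all cassette exons were, and 3 of 130 constitutive exons, where 2.17% were. The exons were *Erbb4* 48 nt and *Numbl* 100 nt, and *Src* 100 nt, *Numb* 85 nt and *Erbb4* 75 nt. By the read test *Numbl* 100 nt (adjusted p = 8.77e-09), *Src* 100 nt (7.67e-09), *Numbl* 141 nt (0.000602) and *Fyn* 70 nt (0.0104) passed by Fisher's exact test, which 20.4% of all cassette and 0.673% of all constitutive exons passed. The *Erbb4* exon of 75 nt was listed at 61.1 in the labelled WT with 0 skipping reads in any library.

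The reads behind these values differed widely between the genes. In the E18 WT, *Fyn* had 345.6, *Ntrk2* 302.6, *Src* 219.0, *Fgfr1* 138.2 and *Numbl* 132.6 RPM in junction reads, while *Fgfr2* had 42.9, *Erbb4* 27.3, *Braf* 26.6, *Numb* 15.4 and *Ngrn* 5.91. These counts are not per length and do not rank the genes by expression. Against its control the NesKO had 0.742 times the *Erbb4* and 0.800 times the *Fgfr2* reads, and the EmxKO 0.547 times the *Erbb4*, 0.663 times the *Fgfr2* and 0.664 times the *Braf* reads. The other ratios at E18 lay between 0.822 for *Fyn* and 1.25 for *Ngrn*, and those at P1 between 0.892 for *Numb* and 1.14 for *Src*. At E18 0 of the 10 genes were past 1.5-fold, against 7.93% of 11769 genes with at least 100 reads, and 3 were at P1, all lower, against 21.1% of 11722. In whole tissue, fewer cells of a type and less RNA per cell cannot be told apart.

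**Figure D4:**
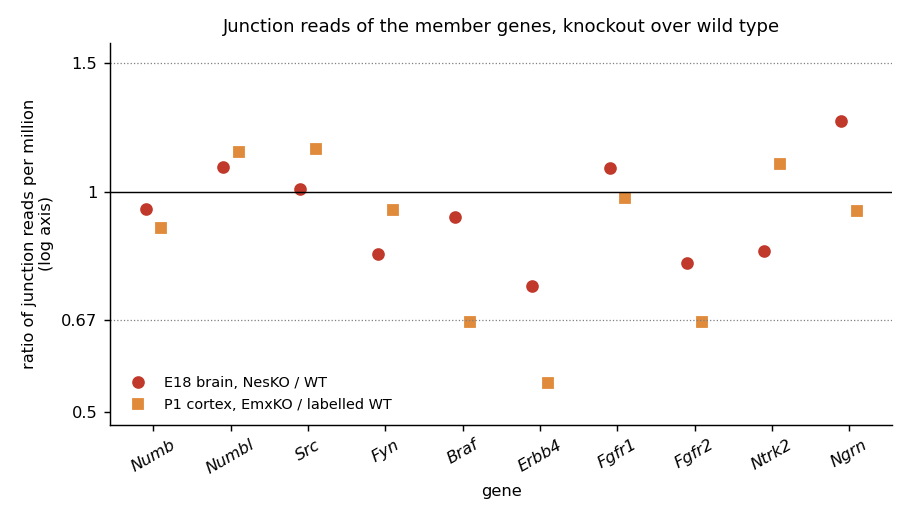
Ratio of junction reads (RPM), mutant over control, for the 10 genes at E18 (circles) and P1 (squares), on a log axis. Dotted lines mark 1.5-fold in either direction. *Erbb4* is lowest at both stages, at 0.742 and 0.547, and only *Erbb4*, *Braf* and *Fgfr2* at P1 lie past a dotted line.

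Other genes of these pathways were read from lists drawn up from general knowledge. In the Notch and Numb list of 37 genes, 12 of them with cassette exons, 3 of 18 cassette exons tested were called at E18, 2 of them higher in the NesKO, and 1 of 19 at P1. In the receptor kinase, SRC and RAF list of 73 genes, 33 of them with cassette exons, 2 of 48 were called at E18, both higher, and 4 of 50 at P1, 2 in each direction. Over all cassette exons 10.9% were called at E18 and 9.42% at P1. The median PSI difference was 1.80 and 2.90 points in the first list and 0.2 and 0.05 in the second, against 0 and 0.2 over all cassette exons. Exons past both the cutoff and an adjusted p of 0.05 were 2 at each stage, and all were higher in the mutant. Each list held 1 of them, of 18 and 48 exons tested at E18 and of 19 and 50 at P1. Over all cassette exons the share was 2.77% and 3.6%.

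The *Ap2a1* exon of 66 nt was the exon past both limits at E18 and at P1. *Ap2a1* encodes a subunit of the AP-2 clathrin adaptor, to which NUMB binds. Its PSI was 92.1, 80.9, 93.2 and 78.1, and both mutants were above both controls. The junction PSI rose by 13.8 points at E18 (6.58 to 21.1, adjusted p = 0.00728) and by 16.1 points at P1 (12.7 to 19.6, adjusted p = 3.20e-19), by Fisher's exact test. A 27 nt exon of *Ptpra*, a phosphatase that activates SRC and FYN, had PSI of 36.5, 24.1, 49.6 and 44.6 and rose at E18 by 9.66 points of junction PSI (3.53 to 15.9, adjusted p = 0.0497 by Fisher's exact test). The 153 nt exon of *Rapgef1*, an exchange factor for RAP1, had PSI of 81.6, 78.6, 87.3 and 74.4 and rose at P1 by 15.9 points (11.7 to 20.003, adjusted p = 1.94e-11 by Fisher's exact test).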

How the data were processed

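PolyA+ RNA of the 4 libraries was sequenced as paired reads of 100 nt, and the authors ran SpliceTrap, which places reads on the trios of its own exon database. Per the labels the processing also named CASAVA, TopHat, Cufflinks and the build mm9. The deposited inclusion ratio is a fraction, before and after SpliceTrap's own correction, and the ratio after correction in percent is the PSI. The deposited junction reads are counts without normalization. The deposited tables also hold exon coverage, a signal that was not used here. Exon ends, run together in the tables, were recovered from start and length.

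Each table held 228333 trios, of which 218362 have a cassette or constitutive middle exon, and 209930 of these were named by exon and intron lengths matched to GENCODE M21 on GRCm38, and no coordinates were converted. Where several trios held the same exon, that with most junction reads over all 4 libraries was used. Named in full were Src N1, the *Numb*, *Braf* and *Erbb4* exons shown, the isoform pairs and every exon called at either stage, and in the pathway lists up to 5 exons per stage past both limits. The members, lists and tests were chosen with earlier results of these data known. The *Numb* exon was first listed with another length and is 147 nt here. Isoform pairs were adjusted over all like pairs of the table, a choice made after the data were seen, as was the difference between stages for *Ntrk2*. Python 3.11.15, numpy 2.4.6, pandas 2.3.3, scipy 1.17.1 and matplotlib 3.10.9 were used. In simulated data on 6474 cassette exons, with 200 raised by 40 points in the NesKO, cutoff and test together called 186 of the 200 at E18 with 3 false calls, and the test between stages found 110 with 2 false calls. These data were drawn with counting error only and with equal reads on both inclusion junctions. They held no variation between animals or libraries and no smaller differences, so they check the code and give no error rate for the calls above. Alternatives were other minimums of reads, the ratio before correction, junction PSI, other trios, other cutoffs and wider naming.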

Additional observations from a re-analysis of the deposited data

Results flagged for a closer look

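The share of the T1 exon in *Ntrk2* differed between the stages, with the mutant above its control at E18 and below it at P1. The log2 odds ratio for the full-length exon at E18 minus that at P1 was -1.03 ± 0.134 (SE), with an adjusted p of 1.70e-11 by the Wald chi-square test, which compares libraries. The stages also differ in tissue, Cre line and strand protocol, and the cause was not tested.

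The retained intron of *Ngrn* was called in opposite directions by the SpliceTrap ratio, at -15.0 points at E18 and 21.0 points at P1. The difference of the reads between the stages had p = 0.0324 and an adjusted p of 0.789 by the Wald chi-square test, and in junction reads both mutants were above their controls.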

How the results depend on the processing

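No paired analysis was possible because each group has 1 library and the labels give no replicate numbers, and for the same reason no library can be left out. Without the P1 library labelled WT, no P1 comparison can be made. Of 62 counts recomputed under another setting, 45 stayed within 1.5 times the value given, and the others follow. The cassette count of 3 at E18 became 0 with a minimum of 50 reads, since each of the 3 exons had fewer in at least 1 library, and 1 with an adjusted p of 0.05 required. The count of 3 at P1 became 1 with the adjusted p and 1 with a 20-point cutoff. The constitutive count of 0 became 1 at E18 with no minimum and with the trio of most skipping reads, 2 with the ratio before correction, and 1 at P1 with a minimum of 10 reads and with none. Splice-site and intron events passing cutoff and read test were 0 at E18 and 1 at P1 in place of 2 each. With the *Ntrk2* pair the isoform pairs past the test were 1 at each stage in place of 0. The pathway count of 5 at each stage became 2 with the adjusted p, and 3 at P1 with a minimum of 50 reads. Exons called between the controls were 3 by junction PSI in place of 5. The cause of these moves was not tested beyond the counts of reads and the settings themselves. Of 165 recomputed differences of single cassette exons, 156 stayed as given, judged by the size of the difference and not by its test. Among exons not called, 4 values passed 10 points. *Numb* 147 nt had -11.6 points at E18 with the higher junction, and at P1 -10.1 by junction PSI and -12.6 with the lower junction. *Erbb4* 48 nt had -13.8 at P1 with the lower junction. By junction PSI the P1 count stayed at 3, with *Numb* 147 nt in place of *Numb* 33 nt. Of the called exons only *Numb* 33 nt fell under 10 points, at 7.95 points at E18 and, reversed, -4.65 points at P1 with the lower of the inclusion junctions, and at 8.67 points at P1 by junction PSI. The reads of that lower junction differed with the trio, as given above for this exon. The higher of the inclusion junctions was added as a setting after the data were seen. With the fewest reads, 20 in *Numb* 33 nt, differences smaller than the intervals given were not detectable.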

Other observations

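An exon of *Src* of 108 nt that was named only by the wider rule, without a match of all its lengths, had a PSI of 13.6 in the NesKO, 12.0 in the E18 WT, 27.5 in the EmxKO and 16.9 in the labelled WT. Its skipping reads were 83, 61, 106 and 141, and the P1 difference had an adjusted p of 0.473 by Fisher's exact test. A constitutive *Fgfr2* exon of 203 nt had PSI of 91.9, 99.9, 97.9 and 98.9, with 5, 0, 3 and 1 skipping reads. In its trio with the IIIb exon the PSI was 89.0, 99.6, 98.5 and 98.4, with 7, 1, 2 and 3 skipping reads. The E18 difference of that trio was past the cutoff. An alternative 3′ site of *Fgfr2* of 92 nt had PSI of 33.3, 39.7, 33.3 and 25.2, lower in the NesKO and higher in the EmxKO than the control, with p = 0.0494 and an adjusted p of 0.885 for the difference between the stages by the Wald chi-square test. In the trio of the *Fyn* exon of 258 nt with most reads, the downstream junction was listed at 0 in every library and the upstream junction at 826, 1361, 2362 and 2419 reads, while in the trio of the next exon, of 97 nt, the same downstream junction held 29, 38, 57 and 66 reads.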
